A study of Homo sapiens with 4 samples.

Results

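The proteasome subunit genes were taken as the protein-coding genes whose symbol begins with PSM, continues with a letter from A to G and a number, and may end in 1 further letter. This rule uses the symbol alone and no measured value. It found 48 genes among 19974 protein-coding genes on chromosomes 1 to 22 and X. They were followed in untreated wild-type MHCC97L cells, an established hepatocellular carcinoma line, with chromatin immunoprecipitation and sequencing (ChIP-seq) of 3 histone H3 modifications. These were trimethylation of lysine 4 (H3K4me3), which marks promoters, acetylation of lysine 27 (H3K27ac), which marks active promoters and enhancers, and monomethylation of lysine 4 (H3K4me1), which marks enhancers and promoter flanks. Each modification had 1 library, and an input library of the same cells was not analysed here. With 1 library per mark and 1 cell line there was no replicate check, so counts and scores are described and no difference was tested.

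The authors deposited the summit of each peak with a score, a −log10 value of the peak caller's p-value or q-value. The score is the authors' own, depends on depth and background, and is compared here between genes within 1 mark only. The read depth is unknown. A gene counted as marked if it had a summit no more than 1000 bp from a boundary, meaning an outer end of the gene in RefSeq on GRCh38.p14. A mark counted as in the gene if a summit lay between the boundaries or in the 1000 bp on each side. A gene with the pair had H3K4me3 and H3K27ac within 1000 bp of the same boundary. Transcription start sites with strand were listed for 42 of the 48 genes, and for these the marks were also measured from the start. The label of the cells was checked on marker genes. Among hepatocyte and liver cancer markers HNF4A, KRT8 and KRT18 had the pair, ALB, APOB and TTR lacked all marks, and APOA1 had H3K4me3 of 1.80 only. KRT8 and KRT18 share boundary summits, so they are not separate observations. Of the markers of other cells, CD3D and COL1A1 lacked all marks. PTPRC had H3K4me3 of 7.29 and H3K27ac of 38.8 in the gene, and PECAM1 had 25.4 and 72.0.

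The proteasome is the protease that degrades ubiquitin-tagged proteins in the cytosol and nucleus. Its 20S core is a barrel of outer alpha rings, which gate the entrance, and inner beta rings, which hold the catalytic sites. A 19S regulatory particle of ATPases and non-ATPases binds, unfolds and feeds in the substrate, and dedicated chaperones assemble both parts. Under interferon the catalytic beta subunits are exchanged for those of the immunoproteasome, which supplies peptides for antigen presentation together with the activator formed by PSME1 and PSME2. When proteasome activity falls, the transcription factor NFE2L1 raises most subunit genes together through antioxidant response elements in their promoters.

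Promoter sequences of 11 members are printed because the results turn on them. Each runs 5′ to 3′ on the gene's strand from 250 bases before the start to 50 bases from it, from RefSeq on GRCh38.p14. Capitals mark matches, on either strand, to 6 motifs, which may overlap each other. The motifs were the antioxidant response element core (TGACNNNGC), the CCAAT box (CCAAT), the ETS core (CGGAAG), the nuclear respiratory factor site (GCGCANGCGC), the TATA box (TATAAA) and the interferon-stimulated response element (GAAANNGAAA). A match is a description of the letters and not a bound site. The last motif was added after the promoters had been seen.

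PSMB4, PSMC4 and PSMB3 stand for constitutive members with high scores. PSMB4 had the highest H3K4me3 score at a listed start, PSMC4 the highest H3K27ac score, and PSMB3 a match to the antioxidant response element core.
PSMB4 (chr1:151399323-151399622, plus strand): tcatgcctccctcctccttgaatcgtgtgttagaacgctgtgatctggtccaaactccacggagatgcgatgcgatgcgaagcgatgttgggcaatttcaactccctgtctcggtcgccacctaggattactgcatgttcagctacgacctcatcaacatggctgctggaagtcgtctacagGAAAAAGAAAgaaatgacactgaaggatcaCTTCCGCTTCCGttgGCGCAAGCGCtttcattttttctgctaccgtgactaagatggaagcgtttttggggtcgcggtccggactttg
PSMC4 (chr19:39970915-39971214, plus strand): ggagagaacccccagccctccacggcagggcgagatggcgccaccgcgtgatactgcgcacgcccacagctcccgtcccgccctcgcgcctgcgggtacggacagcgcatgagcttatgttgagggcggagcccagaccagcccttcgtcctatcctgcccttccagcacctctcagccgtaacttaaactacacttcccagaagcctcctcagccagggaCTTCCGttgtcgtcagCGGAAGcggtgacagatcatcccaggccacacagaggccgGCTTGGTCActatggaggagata
PSMB3 (chr17:38752491-38752790, plus strand): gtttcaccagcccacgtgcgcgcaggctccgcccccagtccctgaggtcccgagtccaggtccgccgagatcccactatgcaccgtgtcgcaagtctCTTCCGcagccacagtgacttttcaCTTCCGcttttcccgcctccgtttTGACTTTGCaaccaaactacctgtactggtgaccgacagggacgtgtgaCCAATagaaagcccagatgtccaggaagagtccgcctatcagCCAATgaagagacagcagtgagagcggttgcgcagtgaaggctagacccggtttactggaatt

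PSMB5, PSMB8 and PSMB11 encode alternative forms of the same catalytic beta subunit, in the constitutive, immune and thymic proteasome. PSMB9 and PSMB10 encode the other immune catalytic subunits, and PSME1 and PSME2 the activator that is induced with them.
PSMB5 (chr14:23035171-23035470, minus strand): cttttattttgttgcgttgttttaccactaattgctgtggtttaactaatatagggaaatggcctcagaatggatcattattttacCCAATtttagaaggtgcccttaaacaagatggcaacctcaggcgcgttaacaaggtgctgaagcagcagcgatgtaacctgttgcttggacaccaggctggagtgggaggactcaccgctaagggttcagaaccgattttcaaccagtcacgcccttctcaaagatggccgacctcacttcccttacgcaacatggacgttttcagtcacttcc
PSMB8 (chr6:32843998-32844297, minus strand): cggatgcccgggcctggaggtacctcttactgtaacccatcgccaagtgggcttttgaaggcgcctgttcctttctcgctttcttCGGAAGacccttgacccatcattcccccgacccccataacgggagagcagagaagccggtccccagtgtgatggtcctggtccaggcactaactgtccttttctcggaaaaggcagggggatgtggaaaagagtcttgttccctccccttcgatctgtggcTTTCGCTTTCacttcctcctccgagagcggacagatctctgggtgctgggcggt
PSMB11 (chr14:23041962-23042261, plus strand): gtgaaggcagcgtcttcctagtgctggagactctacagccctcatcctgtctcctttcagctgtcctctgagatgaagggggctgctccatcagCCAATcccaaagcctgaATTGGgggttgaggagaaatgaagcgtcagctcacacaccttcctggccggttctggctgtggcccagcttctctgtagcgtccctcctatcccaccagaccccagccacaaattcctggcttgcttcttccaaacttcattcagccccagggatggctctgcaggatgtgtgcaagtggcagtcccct
PSMB9 (chr6:32853942-32854241, plus strand): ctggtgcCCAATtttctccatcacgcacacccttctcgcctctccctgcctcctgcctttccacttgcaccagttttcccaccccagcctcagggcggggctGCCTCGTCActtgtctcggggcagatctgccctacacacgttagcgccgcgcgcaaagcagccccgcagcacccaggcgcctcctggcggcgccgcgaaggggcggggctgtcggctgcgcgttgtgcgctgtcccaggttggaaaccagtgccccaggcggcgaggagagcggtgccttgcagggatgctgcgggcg
PSMB10 (chr16:67936801-67937100, minus strand): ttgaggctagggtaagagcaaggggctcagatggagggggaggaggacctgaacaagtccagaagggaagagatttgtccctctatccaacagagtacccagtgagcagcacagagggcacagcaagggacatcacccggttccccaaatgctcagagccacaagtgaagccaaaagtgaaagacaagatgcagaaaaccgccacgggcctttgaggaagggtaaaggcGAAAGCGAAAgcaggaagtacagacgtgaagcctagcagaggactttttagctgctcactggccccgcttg
PSME1 (chr14:24135944-24136243, plus strand): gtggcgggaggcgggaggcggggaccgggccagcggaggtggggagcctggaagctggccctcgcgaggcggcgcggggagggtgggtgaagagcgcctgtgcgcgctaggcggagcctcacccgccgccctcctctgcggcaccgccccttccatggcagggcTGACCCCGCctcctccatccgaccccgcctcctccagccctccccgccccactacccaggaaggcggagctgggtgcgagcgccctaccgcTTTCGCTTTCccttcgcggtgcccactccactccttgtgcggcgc
PSME2 (chr14:24146561-24146860, minus strand): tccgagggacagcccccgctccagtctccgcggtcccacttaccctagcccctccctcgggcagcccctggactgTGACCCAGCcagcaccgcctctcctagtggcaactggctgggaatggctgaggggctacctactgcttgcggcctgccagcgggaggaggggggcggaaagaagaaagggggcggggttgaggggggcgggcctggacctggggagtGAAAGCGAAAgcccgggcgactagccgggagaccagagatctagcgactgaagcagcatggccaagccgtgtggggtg

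PSMA8 encodes the alpha subunit of the testis. It is printed as a promoter without any of the marks that holds 3 matches to the ETS core.
PSMA8 (chr18:26133619-26133918, plus strand): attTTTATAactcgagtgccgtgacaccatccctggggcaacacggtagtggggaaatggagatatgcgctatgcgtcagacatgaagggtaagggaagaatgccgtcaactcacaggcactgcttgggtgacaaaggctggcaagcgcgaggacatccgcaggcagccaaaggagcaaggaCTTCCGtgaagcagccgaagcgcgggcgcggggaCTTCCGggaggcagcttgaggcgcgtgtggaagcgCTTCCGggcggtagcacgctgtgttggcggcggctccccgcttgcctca

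The active promoter pair was found within 1000 bp of a boundary in 38 of the 48 members (79.2%, 95% Wilson interval 65.7 to 88.3), against a background of 47.4% of all protein-coding genes. Within 500 bp it was found in 21 members (43.8%, 30.7 to 57.7), against 31.2%, and H3K4me3 in the same number, against 40.6%. H3K4me3 was at a boundary of 38 members, against a background of 56.8%. H3K27ac was at a boundary of 43 members (89.6%, 77.8 to 95.5), against 54.1%. H3K4me1 was at a boundary of 3 members (6.25%, 2.15 to 16.8), against 12.4%. The intervals cover counting error over genes only. For comparison, the pair marked 73 of 77 genes of the mitochondrial ribosome (94.8%, 87.4 to 98.0) and 74 of 85 genes of the cytosolic ribosome (87.1%, 78.3 to 92.6). The intervals of the proteasome and cytosolic ribosomal genes overlap, and those of the proteasome and mitochondrial ribosomal genes overlap narrowly.

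**Figure D1:**
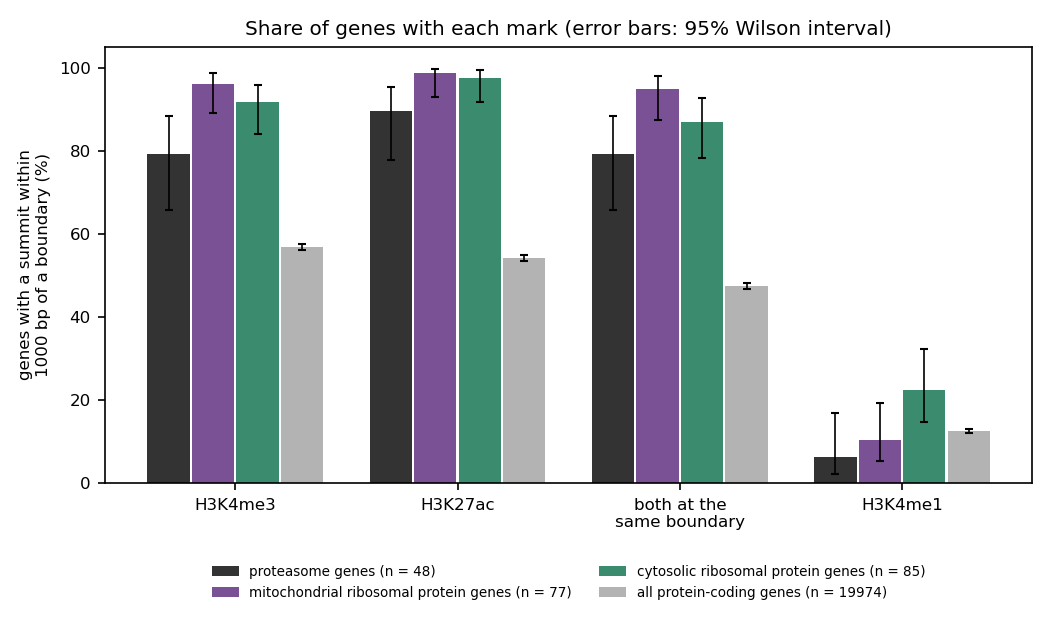
Share of genes, in percent, with a summit of H3K4me3, H3K27ac, both at the same boundary, or H3K4me1 within 1000 bp of a boundary, for 48 proteasome, 77 mitochondrial ribosomal, 85 cytosolic ribosomal and 19974 protein-coding genes, with 95% Wilson intervals as error bars. The proteasome bars for H3K4me3, H3K27ac and both (79.2%, 89.6% and 79.2%) stand above those of all protein-coding genes, and the H3K4me1 bar (6.25%) does not.

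The scores of the marked members were mostly above the median of all marked genes, in 30 of 38 for H3K4me3 and 34 of 43 for H3K27ac. The best boundary H3K4me3 score ran from 27.8 to 130.3 with a median of 71.1 over 38 members, against a median of 52.1 over the 11344 protein-coding genes with the mark. It exceeded the upper quartile of those genes, 69.3, in 21 of the 38. The best H3K27ac score ran from 5.00 to 116 with a median of 47.9 over 43 members, against 30.1 over 10810 genes, and it exceeded their upper quartile of 49.8 in 19 of the 43. Cytosolic ribosomal protein genes had nearly the same medians, 71.1 for H3K4me3 and 50.8 for H3K27ac, and mitochondrial ones had 66.1 and 30.1. Across the 38 members with both marks the 2 scores were loosely related (Pearson's r 0.42, Spearman's rho 0.35, across genes, which are not independent replicates and share the same libraries). Over 9566 protein-coding genes with both marks at any boundary, r was 0.41 and rho 0.43.

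The 5 highest H3K4me3 scores at a boundary belonged to subunits of both the core and the regulatory particle. PSMD4, the ubiquitin receptor of the regulatory particle, had 130.3, higher than 99.9% of the marked protein-coding genes. PSMB4, a non-catalytic beta subunit, had 113, PSMD12, a lid subunit, 109.9, PSMC3, an ATPase, 101, and PSME4, a nuclear activator, 98.5. The 5 highest boundary H3K27ac scores began with 3 ATPase genes, PSMC4 (116), PSMC2 (89.2) and PSMC5 (84.0), followed by the assembly chaperone PSMD9 (82.9) and PSMD4 (82.2). PSMD4 is in both groups. Away from the boundaries, PSMC2 had H3K4me3 of 111 and PSMG2 had H3K27ac of 82.9, which would place them among these.

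**Figure D2:**
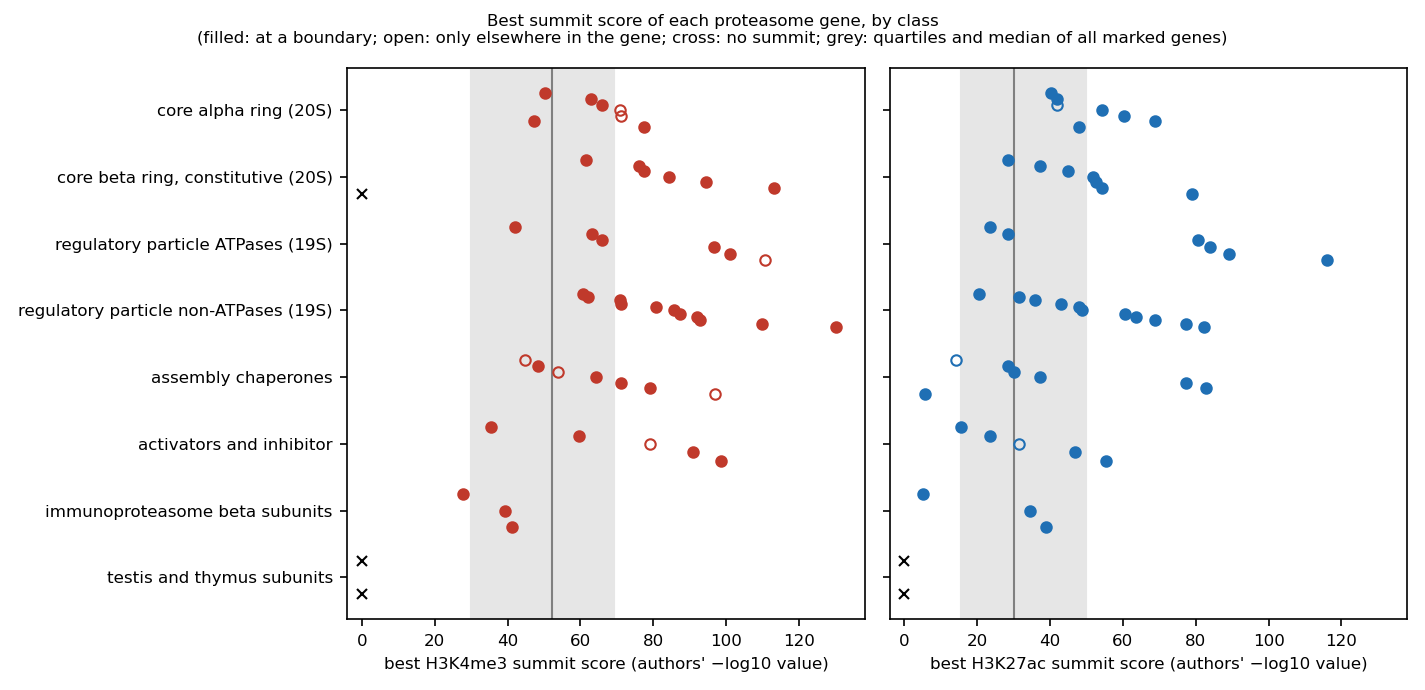
Best summit score (authors' −log10 value) of each proteasome gene for H3K4me3 and H3K27ac, by class. Filled points are summits at a boundary, open points summits found only elsewhere in the gene, crosses genes with no summit, and the grey line and band the median and quartiles of all protein-coding genes with the mark at a boundary. The 3 immunoproteasome genes lie between 27.8 and 41.2 for H3K4me3, and the testis and thymus genes have no summit.

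The 7 constitutive alpha ring genes, PSMA1 to PSMA7, all had both marks in the gene, and 5 had the pair at a boundary. Their best H3K4me3 scores in the gene ran from 50.2 (PSMA5) to 77.6 (PSMA2), and their H3K27ac scores from 40.2 (PSMA2) to 71.7 (PSMA1). PSMA6 and PSMA7 were missed at the boundary. In PSMA6 the listed starts lie inside the annotated gene, and both marks were there, H3K4me3 of 70.9 at 533 bp and H3K27ac of 41.8 at 137 bp downstream of the nearer start. In PSMA7, which shares its H3K27ac summit with SS18L1, H3K27ac of 54.1 lay 166 bp inside the upper boundary and H3K4me3 of 71.3 lay 1380 bp inside it. PSMA1 was called through the boundary it shares with PDE3B (H3K4me3 47.2, H3K27ac 47.9), while at its listed start the scores were 71.6 and 71.7.

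Of the 7 constitutive beta ring genes 6 had the pair. H3K4me3 scores of those 6 ran from 61.5 (PSMB5) to 113 (PSMB4), with PSMB3 at 94.3, PSMB2 at 84.2, PSMB7 at 77.5 and PSMB6 at 76.1. H3K27ac was found in all 7, from 28.5 (PSMB6) to 78.9 (PSMB5). The catalytic subunit genes PSMB5, PSMB6 and PSMB7 had the lowest H3K4me3 of the 6, and PSMB5 had the highest H3K27ac of the ring. PSMB1 had H3K27ac of 52.6 at 156 bp inside its upper boundary, shared with TBP, the gene of the TATA-binding protein. The nearest H3K4me3 summit, 67.7, lay 1204 bp outside that boundary and so past the window.

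All 6 genes of the 19S ATPases had both marks at a listed start, and 5 had the pair at a boundary. PSMC3, PSMC4, PSMC2 and PSMC5 had H3K27ac scores between 80.7 and 116, while PSMC1 and PSMC6 had 23.6 and 28.5. The ring therefore splits into 4 genes above and 2 below the median of all marked genes, 30.1. H3K4me3 ran from 42.0 in PSMC1 to 101 in PSMC3 and to 111 inside PSMC2. PSMC2 missed the boundary rule by 67 bp, with its H3K4me3 summit 1067 bp from the boundary and 948 bp from the start, and its boundary H3K27ac summit is shared with PMPCB. PSMC1 also had a weak H3K4me1 summit (3.01) at its far boundary.

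The 11 non-ATPase genes of the regulatory particle all had the pair at a boundary. Their H3K4me3 scores ran from 60.7 (PSMD1) to 130.3 (PSMD4), all above the median of all marked genes, with a class median of 85.6. Their H3K27ac scores ran from 20.6 (PSMD6) to 82.2 (PSMD4), with a median of 48.9. PSMD14, the deubiquitinase of the lid, had 62.0 and 63.7. PSMD6, a lid subunit, combined H3K4me3 of 80.8 with the lowest H3K27ac of the class, and PSMD2, a scaffold of the base, had 91.9 with 31.5. High H3K4me3 therefore did not always go with high H3K27ac.

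The assembly chaperone genes were more varied. All 7 had both marks in the gene, 4 had the pair at a boundary, and H3K4me3 in the gene ran from 44.8 (PSMG4) to 96.9 (PSMG2). PSMG2 had H3K27ac of 5.52 and H3K4me1 of 2.28 near its outermost start and no H3K4me3 within 1000 bp of it. Its second listed start, inside the gene and head to head with CEP76, had H3K4me3 of 96.9 and H3K27ac of 82.9. PSMG4 likewise had its marks (44.8 and 14.1) at a start inside the annotated gene, 128 and 120 bp downstream of it. PSMG1 had H3K27ac of 37.3 at 137 bp and H3K4me3 of 53.8 at 1247 bp downstream of its start, beyond the window. PSMG3 was called through a weak H3K4me3 summit (7.31) beside H3K27ac of 77.3 and H3K4me1 of 4.43 at 1 boundary, while its strong H3K4me3 summit of 79.1 lay at the other. PSMD10, which encodes gankyrin, an oncoprotein studied in liver cancer, had H3K4me3 of 71.3 and H3K27ac of 30.1. PSMD5 had 48.2 and 28.5, and PSMD9 64.2 and 82.9.

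Activator genes fell into separate ranges. PSME3 and PSME4, which encode nuclear activators, had H3K4me3 of 90.9 and 98.5 and H3K27ac of 55.3 and 46.9. PSME1 and PSME2, the interferon-inducible pair, had 35.3 and 59.7 for H3K4me3 and 15.5 and 23.6 for H3K27ac. Both scores were lower in PSME1 and PSME2 than in PSME3 and PSME4. The inhibitor gene PSMF1 had no mark at its outermost start and H3K4me3 of 79.2 with H3K27ac of 31.5 at its second start inside the gene.

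The 3 immunoproteasome genes all had the pair, with H3K4me3 scores below the lower quartile of the marked members, 60.9. In H3K27ac only PSMB8 was below theirs, 32.9. PSMB8 had H3K4me3 of 27.8 and H3K27ac of 5.00, each the lowest of the marked members at a boundary. These were higher than in 22.96% and 4.12% of the protein-coding genes with the mark. PSMB9 had 41.2 and 34.4, and PSMB10 had 39.3 and 38.8. Their constitutive counterparts scored higher in H3K4me3 in each case, PSMB5 (61.5) over PSMB8, PSMB6 (76.1) over PSMB9 and PSMB7 (77.5) over PSMB10. In H3K27ac PSMB5 (78.9) and PSMB7 (54.2) scored higher than their immune forms, and PSMB6 (28.5) did not. The PSMB9 scores in these comparisons come from summits shared with TAP1. Ordered by boundary H3K4me3, the lowest members were PSMB8, PSME1, PSMB10 and PSMB9, followed by PSMC1 at 42.0, so 4 interferon-inducible genes fill the bottom of the order and PSME2 does not. With 1 library these orders have no replicate check.

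PSMB8 and PSMB9 lie in the class II region of chromosome 6 beside TAP1 and TAP2, whose products carry peptides into the endoplasmic reticulum. PSMB9 and TAP1 start head to head, 488 bp apart. The H3K4me3 summit counted for PSMB9 lay 574 bp upstream of its start, inside TAP1 and 86 bp from the TAP1 start, and the H3K27ac summit of 34.4 lay between the genes, at -244 bp from the PSMB9 start. Downstream of the PSMB9 start itself there was an H3K27ac summit of 4.57 at 223 bp and no H3K4me3. The marks of this promoter thus belong to both genes and cannot be told apart. PSMB8 has 2 listed starts, and both of its summits lay between them, 160 and 143 bp upstream of the inner start whose promoter is printed above. TAP2 had H3K4me3 of 38.1 and H3K27ac of 24.5. No H3K4me1 summit was listed in the region drawn.

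**Figure D3:**
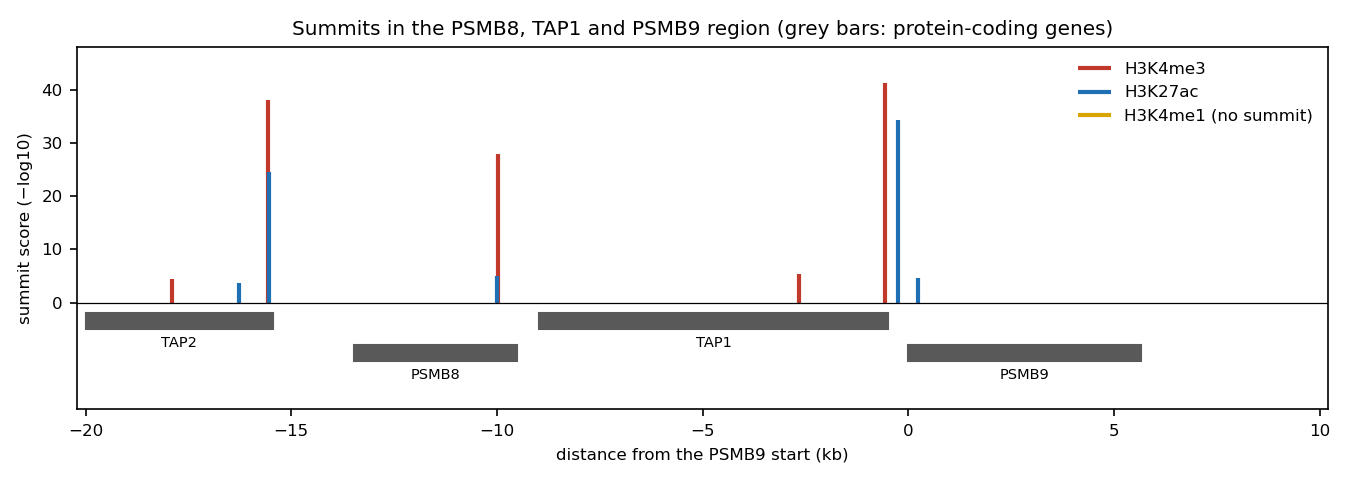
Summits around PSMB8, TAP1 and PSMB9, by distance from the PSMB9 start in kb, with height as the authors' −log10 score and grey bars for protein-coding genes. The highest H3K4me3 summit (41.2) and H3K27ac summit (34.4) stand at the PSMB9 and TAP1 starts, and PSMB8 has H3K4me3 of 27.8 with H3K27ac of 5.00.

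Other interferon-inducible genes of antigen presentation had the pair in 8 of 10 cases, against 47.4% of protein-coding genes. TAP1 is among the 8 through the summits also counted for PSMB9, so that promoter enters both lists. Their median H3K4me3 score was 48.7 over the 9 with the mark, against 52.1 over all genes with it. HLA-B, which encodes a class I heavy chain, had H3K4me3 of 26.9 and no H3K27ac in the gene. ERAP1 encodes a peptide-trimming protease, and its scores were 52.6 for boundary H3K27ac and 41.2 for H3K4me3 at a listed start. IRF1, a transcription factor gene, had 48.7 and 46.4, and B2M, the light chain gene, had 67.3 and 46.9.

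PSMA8 and PSMB11 lacked all 3 marks. For PSMA8 the nearest H3K4me3 summit lay 44070 bp and the nearest H3K27ac summit 43369 bp upstream of the start. For PSMB11, a neighbour of PSMB5 on chromosome 14, they lay 7471 and 7157 bp upstream, and both summits (61.5 and 78.9) are those counted for PSMB5. The 2 promoters differ in their letters. The observed over expected ratio of CpG was 0.92 for PSMA8 and 0.17 for PSMB11, the lowest of the members' windows, against a median of 0.74 over 22132 windows of protein-coding genes. The marked PSMB10 promoter had 0.33.

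Outside those 3 immune and 2 tissue-restricted genes, each of the 43 members had H3K27ac in the gene and 42 had both marks there, PSMB1 being the exception. Over all 48 members the whole-gene count of both marks was 45, against a background of 61.2%. H3K4me3 was in 45 (background 69%), H3K27ac in 46 (background 64.5%) and H3K4me1 in 17 (background 40.4%). At a listed start the pair was found in 39 of 42 members, against a background of 53.1% of 15812 protein-coding genes. H3K4me3 was at a start of 39 (background 62%) and H3K27ac of 40 (background 57.6%). The 3 without the pair at a start were PSMG1, PSMA8 and PSMB11. Of the 10 members without the pair at a boundary, 5 (PSMF1, PSMG2, PSMG4, PSMA6 and PSMC2) had it at a listed start. Just inside the window lay the H3K4me3 summits of PSMB2 (990 bp from the boundary) and PSMA2 (890 bp), and just outside it those of PSMC2 (1067 bp), PSMB1 (1204 bp), PSMG1 (1310 bp) and PSMA7 (1380 bp).

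The counts of H3K4me3, the pair and H3K4me1 moved with the distance allowed, and those of H3K27ac moved little. Within 500 bp of a boundary H3K4me3 was found in 21 members (43.8%, background 40.6%), H3K27ac in 41 (85.4%, background 48%), the pair in 21 (43.8%, background 31.2%) and H3K4me1 in 2 (4.17%, background 7.31%). Within 2500 bp H3K4me3, H3K27ac and the pair were each found in 43 members (backgrounds 64.7%, 59% and 55.8%). H3K4me1 was found in 12 (25%, background 24.9%). H3K27ac thus stayed close to the boundary where H3K4me3 often lay further off. A minimum score of 5 left H3K4me3 and the pair in 38 members each (backgrounds 55.1% and 45.5%) and H3K27ac in 43 (background 51.9%). H3K4me1 was then left in 0 (background 5.79%). A minimum of 10 left H3K4me3 in 38 (background 51.7%), H3K27ac in 41 (background 46.4%) and the pair in 36 (background 40.3%). H3K4me1 was again left in 0 (background 1.13%).

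The summits had a common layout along the genes. An H3K27ac summit was the nearest to the start at 100 to 200 bp downstream in 26 of the 40 members with H3K27ac within 1000 bp (65.0%), against 45.2% of 9114 protein-coding genes. In PSMA1, PSMB4, PSMC2, PSMD14 and PSME3 it lay at 162, 166, 160, 156 and 150 bp. The first nucleosome downstream of an active start lies in such a position as a rule. The share was 62.3% for mitochondrial and 41.8% for cytosolic ribosomal protein genes, and 49.5% for protein-coding genes whose start H3K4me3 score was above the median of all, a group added after the data had been seen. The proteasome share was closest to that of the mitochondrial ribosomal genes, and these differences were not tested.

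H3K4me3 summits lay further into the genes. The nearest one was downstream of the start in 32 of 39 members (82.1%), against 72.4% of 9800 protein-coding genes. The share was 82.1% for mitochondrial and 75% for cytosolic ribosomal protein genes. With upstream positions counted as negative, the nearest summit lay at a median of 358 bp over all 39, against 153.5 bp over the 9800 genes. Upstream summits, 7 of the 39 and 2703 of the 9800, lower these signed medians. The median was 167 bp over genes with a start score above the median. Cytosolic ribosomal protein genes had 341 bp and mitochondrial ones 160 bp. In PSMB2, PSMC2 and PSMA2 the summit lay at 990, 948 and 890 bp, so that H3K27ac near the start and H3K4me3 further in were well apart. In PSMB3, PSMC6, PSMD7, PSMG4 and PSME1 both summits lay within 160 bp downstream of the start. Members with H3K4me3 at a start had a mean of 1.56 H3K4me3 summits within 2500 bp, against 1.78 over all such genes.

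**Figure D4:**
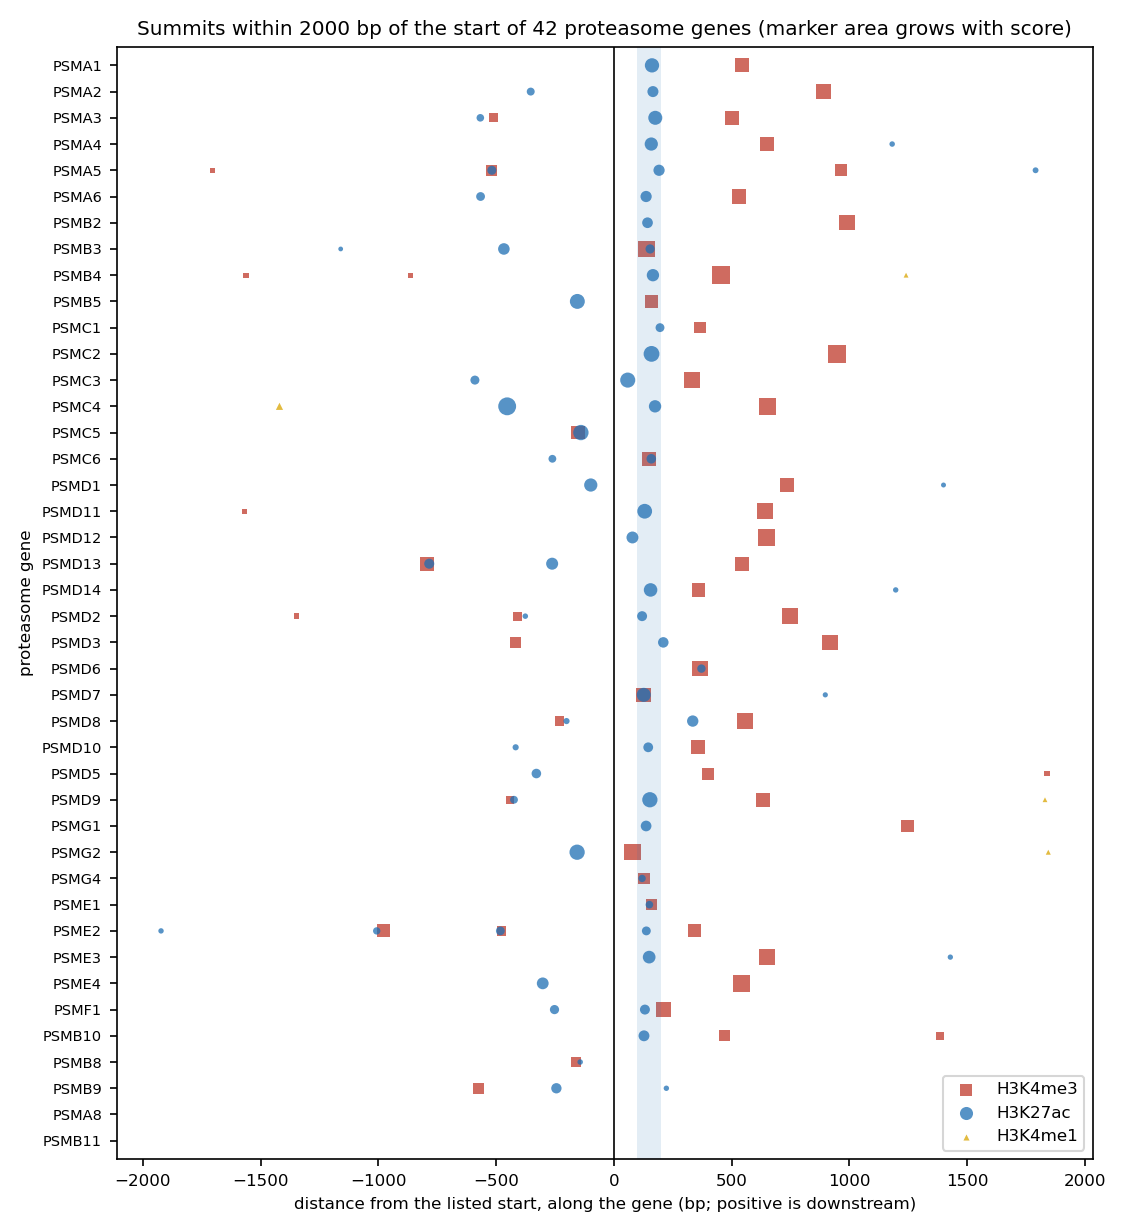
Summits of H3K4me3 (squares), H3K27ac (circles) and H3K4me1 (triangles) within 2000 bp of the start of 42 proteasome genes, by distance in bp along the gene, with marker area growing with the score; where a gene has several listed starts, the one nearest to an H3K27ac summit is used. H3K27ac circles line up in the shaded 100 to 200 bp downstream, H3K4me3 squares scatter further downstream, and PSMA8 and PSMB11 are empty.

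**Figure D5:**
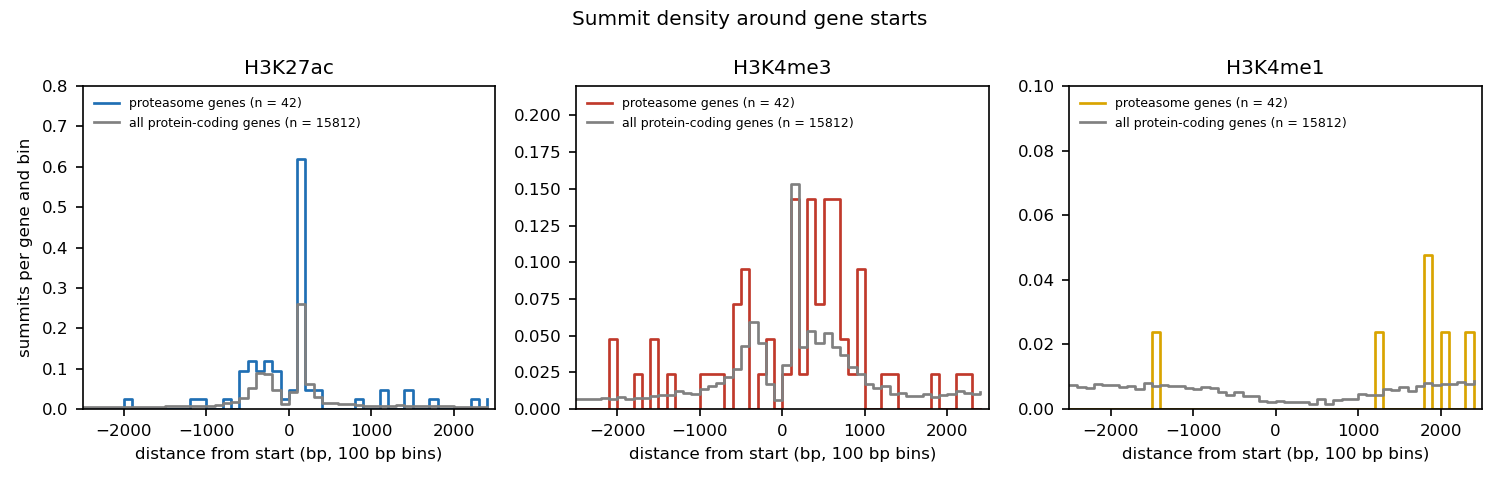
Summits per gene in 100 bp bins around the same starts, for 42 proteasome genes (coloured) and 15812 protein-coding genes (grey), with a separate vertical scale for each mark. The H3K27ac line of the proteasome genes reaches 0.62 summits per gene between 100 and 200 bp downstream, against 0.26 for all genes, and no H3K4me1 summit of a member falls within 1000 bp of these starts. Both lines include genes without H3K27ac near a start, so their heights reflect how many genes have the mark as well as its position.

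H3K4me1 was rare near the listed starts. Within 1000 bp of any listed start it was found in 1 of 42 members, PSMG2 near its outermost start, against a background of 7.6%. The share was 2.94% for cytosolic and 1.45% for mitochondrial ribosomal protein genes. Within 2500 bp of a boundary 12 of 48 members (25%) had H3K4me1, against 24.9% of protein-coding genes. The median distance from a start to the nearest H3K4me1 summit was 19291 bp, against 22682 bp over protein-coding genes. Distal active sites were taken as H3K27ac summits that had H3K4me1 within 1000 bp and lay more than 2500 bp from the boundaries of all annotated genes. Of the 48 members, 8 (16.7%) were the nearest protein-coding gene to 1 or more such sites, against 29.9% of protein-coding genes. PSMG2 had 14 such sites, PSMA1 6, PSMB7 5, PSMA6 and PSMG1 3 each, PSMD6 2, and PSMD9 and PSMF1 1 each. The nearest gene is an assignment by distance only.

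Several members share their promoter with another gene. Of the 42 with a listed start, 9 (21.4%) had another protein-coding gene starting head to head within 1000 bp upstream, against 12.3% of 15812 genes. The distances were 45 bp for PSMD13 with SIRT3, a mitochondrial deacetylase gene, 58 bp for PSMC5 with FTSJ3, 120 bp for PSME4 with ACYP2, 179 bp for PSMD9 with HPD, a liver enzyme gene of tyrosine breakdown, and 202 bp for PSMA2 with MRPL32, a mitochondrial ribosomal protein gene. They were 236 bp for PSMD10 with ATG4A, an autophagy protease gene, 265 bp for PSME2 with RNF31 and for PSMG2 with CEP76, and 488 bp for PSMB9 with TAP1. At such promoters a summit cannot be given to 1 of the 2 genes.

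More member promoters than promoters in general held the ETS core. The motif was in 28 of 51 member windows (54.9%, in 25 of 42 genes), against 23.7% of 22132 windows of protein-coding genes. Of its 45 matches 34 (75.6%) began within 100 bases of the start, against 65.0% of 7113 matches over all windows. PSMB3, PSMB4 and PSMC4, printed above, hold 2 matches each, and the unmarked PSMA8 holds 3. The antioxidant response element core was in 15 windows (29.4%, 15 genes), against 13.8%. The genes were PSMA4, PSMB3, PSMB9, PSMC4, PSMC5, PSMD1, PSMD3, PSMD5, PSMD9, PSMD12, PSME1, PSME2, PSME4, PSMG1 and PSMG2. The nuclear respiratory factor site was in 7 windows (13.7%) against 7.41%, the CCAAT box in 20 (39.2%) against 34.6%, and the TATA box in 5 (9.80%) against 9.46%. Some windows of 1 gene overlap, so they are not independent and a match can be counted in more than 1 window. The interferon-stimulated response element, the motif added after the promoters had been seen, was in 7 windows (13.7%) against 3.17%. It was found in PSMB8, PSMB10, PSME1, PSME2, PSMA4, PSMB4 and PSMG4. Of the 5 interferon-inducible members 4 held this motif, PSMB8 at its inner start only, and PSMB9 did not in this window. The median GC content was 62.0% in member windows and 62.3% in all windows.

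Of 18 genes that work with the proteasome but have other symbols, 17 had the pair, against 47.4% of protein-coding genes. Their median scores were 66.3 for H3K4me3 and 62.5 for H3K27ac, against 52.1 and 30.1 over all genes with each mark. SEM1 and ADRM1, subunits of the regulatory particle outside the symbol rule, had H3K4me3 of 111 and 74.4 and H3K27ac of 62.7 and 54.0. POMP, the maturation factor of the core, had 26.9 and 15.5, the lowest H3K27ac of the list. UBQLN4, a ubiquitin shuttle gene without a listed start, had H3K27ac of 101.9 and no H3K4me3 in the gene. It shares a boundary H3K27ac summit with LAMTOR2. The highest H3K4me3 scores after SEM1 were 96.0 in UBQLN1, another shuttle gene, and 91.3 in VCP, the gene of a ubiquitin-handling ATPase.

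In the pathway of NFE2L1, 4 of 7 genes had the pair at a boundary, a share near the 47.4% of all protein-coding genes. All 7 had both marks in the gene, against 61.2%. NFE2L1 itself had H3K4me3 of 67.5 and H3K27ac of 115, with a boundary summit shared with COPZ2. DDI2, the protease that releases NFE2L1 from the endoplasmic reticulum, had 54.9 and 44.8, and NGLY1, which deglycosylates it, had 51.8 and 19.3 at a start. MAFF, a partner gene, had 33.9 and 5.52. NFE2L2 encodes the related factor of the oxidative stress response, with scores of 103 for boundary H3K27ac and 85.8 for H3K4me3 at a start. The partner genes MAFG and MAFK lacked the pair at a boundary. In the gene they had H3K4me3 of 70.5 and 41.7 and H3K27ac of 135.6 and 36.2.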

How the data were processed

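Summit lists of H3K27ac, H3K4me1 and H3K4me3 from 1 library each of MHCC97L cells were used. The submitters' processing notes name MACS2, Bowtie, deepTools and Picard with the build hg38. Versions, settings and the role of the input library are not given in sources used here. The values deposited by the authors are −log10 p-values or q-values per summit, with lowest values of 1.30, 1.33 and 1.31. On chromosomes 1 to 22 and X there were 70028, 86366 and 46078 summits; 273, 61 and 185 elsewhere were left out. No counts were given, so depth is unknown.

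Genes, starts and promoter letters came from RefSeq tables on GRCh38.p14, which shares coordinates with hg38. Symbols matched 48 members, 42 with 1 or more listed starts. Summits within 1000 bp of a boundary or start were assigned with Python 3.11.15 and pandas 2.3.3, checked on planted summits. Wilson intervals (95%) came from scipy 1.17.1. Windows of 500 and 2500 bp, scores of at least 5 and 10, whole genes and starts were alternatives. Members given in full were, by rule, those without the pair, the immune, testis and thymus genes, the 5 highest and 3 lowest per mark, and those with H3K4me1. Members, classes and lists were chosen with earlier results of these data known. Values of further members, given to show each class, were chosen after they were seen. Some genes of the marker and antigen presentation lists are not reported here.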

Additional observations from a re-analysis of the deposited data

How the results depend on the processing

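The counts of members with the pair, H3K4me3 or H3K27ac stayed within 1.5 times their values under scores of at least 5 or 10, a window of 2500 bp, whole genes and listed starts. With a window of 500 bp the pair fell to 21 members and H3K4me3 to 21 (all genes 31.2% and 40.6%), and the median H3K4me3 score to 59.7, the other 17 members having H3K4me3 only at 500 to 1000 bp from a boundary. H3K27ac was then still found in 41. Among the members, H3K4me1 was found in 12 with 2500 bp, 17 over the whole gene, 1 at listed starts, and 0 with a score of at least 5 and 0 with at least 10. A score of at least 10 removed the pair from PSMB8 and PSMG3. Under the other settings the median H3K4me3 score stayed between 71.0 and 71.3, and under all of them the median H3K27ac score between 43.9 and 47.9. No paired analysis was possible because each mark has 1 library. Without replicates or read counts, differences between single genes have no measured error.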
